A study of Homo sapiens with 6 samples.

Results

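The PPAR receptors and a set of their targets in fatty acid oxidation were described in MDA-MB-231, a line of triple-negative breast cancer cells, with and without knockdown of the pseudouridine synthase PUS1. The members were 8 genes chosen by symbol from the 60605 genes of the deposited table. They are the receptors PPARA, PPARD and PPARG, the lipid droplet gene PLIN2, the pyruvate dehydrogenase kinase gene PDK4, and CPT1A, SLC25A20 and ACADVL of mitochondrial fatty acid oxidation. All 8 had enough reads to be tested. The study compared 3 libraries of cells that carried a control hairpin (shControl, shRNA control) with 3 libraries of cells that carried a hairpin against PUS1 (shPUS1, PUS1 knockdown). Both groups were given lentiviral hairpins, and the cells were selected with puromycin and grown in medium with fetal bovine serum. The hairpins against PUS1 were built in pLKO.1, and the vector of the control hairpin is not named. The text of the study does not say which of its PUS1 hairpins the sequenced cells carried, and a single hairpin does not separate the loss of PUS1 from other effects of that hairpin.

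The PPARs (peroxisome proliferator-activated receptors) are nuclear receptors that are switched on by fatty acids and their derivatives. They bind DNA as a pair with a retinoid X receptor, at a repeat of the core motif AGGTCA with a single base between the copies, and recruit coactivators. PPARA is best known for fatty acid oxidation in liver, PPARD for oxidation in many tissues including muscle, and PPARG for fat storage and adipocyte differentiation. Among their classical targets, PLIN2 coats lipid droplets, and PDK4 shuts off pyruvate dehydrogenase. CPT1A makes acylcarnitines at the outer mitochondrial membrane, SLC25A20 carries them across the inner membrane, and ACADVL starts the oxidation of very-long-chain fatty acids.

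Library totals lay between 14241505 and 19625998 estimated counts. Levels are given as CPM, counts relative to the TMM-scaled library size, and levels of different genes are compared as FPKM, the authors' length-scaled values. The exonic length behind FPKM is listed per gene and not per transcript, so comparisons between genes depend on it. The gene PUS1 itself was at 14.5, 27.5 and 12.1 CPM in shControl replicates 1, 2 and 3 and at 6.57, 5.47 and 5.37 CPM in shPUS1, so that the groups did not overlap. Its log2 fold change was -1.64 (edgeR adjusted p = 0.0462). Without shControl replicate 2, where PUS1 was highest, it was -1.20 (edgeR adjusted p = 0.00311). PUS1 passed in 8 of the 15 fits run on it. It did not pass in either limma fit, with a replicate block, without shControl replicate 1 or without any shPUS1 library. shControl replicate 2 stood apart from the other libraries. Across genes, Pearson's r of its log2 CPM was 0.951 and 0.952 with the other shControl libraries, where these had 0.981 with each other and the shPUS1 pairs had 0.987 to 0.991. The mesenchymal marker VIM was at 2008 to 2651 CPM in shControl and 1486 to 1770 CPM in shPUS1, without overlap (log2 fold change -0.50, edgeR adjusted p = 0.0873), and its part in the members' values was not tested. Of the other markers set for this line, CD44 was lower without overlap (log2 fold change -0.29, edgeR adjusted p = 0.169). EGFR (0.33, adjusted p = 0.326) and KRT18 (-0.016, adjusted p = 0.943) overlapped between the groups. ESR1 and PGR, the hormone receptor genes that triple-negative cells lack, stayed at or below 0.59 CPM. ERBB2 was at 51.1 to 73.3 CPM. Of the adipocyte markers, LEP and ADIPOQ had 0 counts in every library, PLIN1 was the highest at 0.472 to 1.77 CPM, and PTPRC and AIF1 of the 4 blood cell markers did not exceed 0.136 CPM. The other two were present. CD14 was at 1.99 to 4.82 CPM with overlap, and the lysosomal gene CD68 was at 83.0 to 89.5 CPM in shControl and 60.2 to 69.2 CPM in shPUS1, without overlap (log2 fold change -0.39, edgeR adjusted p = 0.1). Its part in the members' values was not tested either. In bulk RNA, fewer cells that express a gene and less RNA of it per cell cannot be told apart.

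None of the 8 members passed the test of shPUS1 against shControl, an adjusted p under 0.05 in edgeR's quasi-likelihood test over 14748 genes, where 2.58% of all genes did. At an unadjusted p under 0.05 there were 4 members, PPARG with a higher value in shPUS1 and CPT1A, PLIN2 and SLC25A20 with lower values, and 25.5% of all genes were at that level. DESeq2, the tool named in the study's methods, called 2 of the 8 on the same libraries, PPARG as higher and CPT1A as lower, where it called 12.4% of all genes (7.05% higher, 5.36% lower). With no filter on low counts edgeR called PPARG alone, beside 4.75% of all genes (2.8% higher, 1.95% lower), and with library totals in place of TMM it called none of the 8, beside 2.01% (1.11% higher, 0.895% lower). The 3 receptors had fitted log2 fold changes (shPUS1 relative to shControl) above 0, from 0.47 to 0.98, and the 5 targets had values below 0, from -0.51 to -0.19. The median over the 8 was -0.25, and over all genes tested it was -0.034. For 7 of the 8 members no shPUS1 value overlapped a shControl value on the CPM scale, PDK4 being the exception. Of the 7, 3 were higher and 4 lower in shPUS1. The same separation was found for 36.1% of all genes tested (18.8% higher, 17.3% lower).

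**Figure D1:**
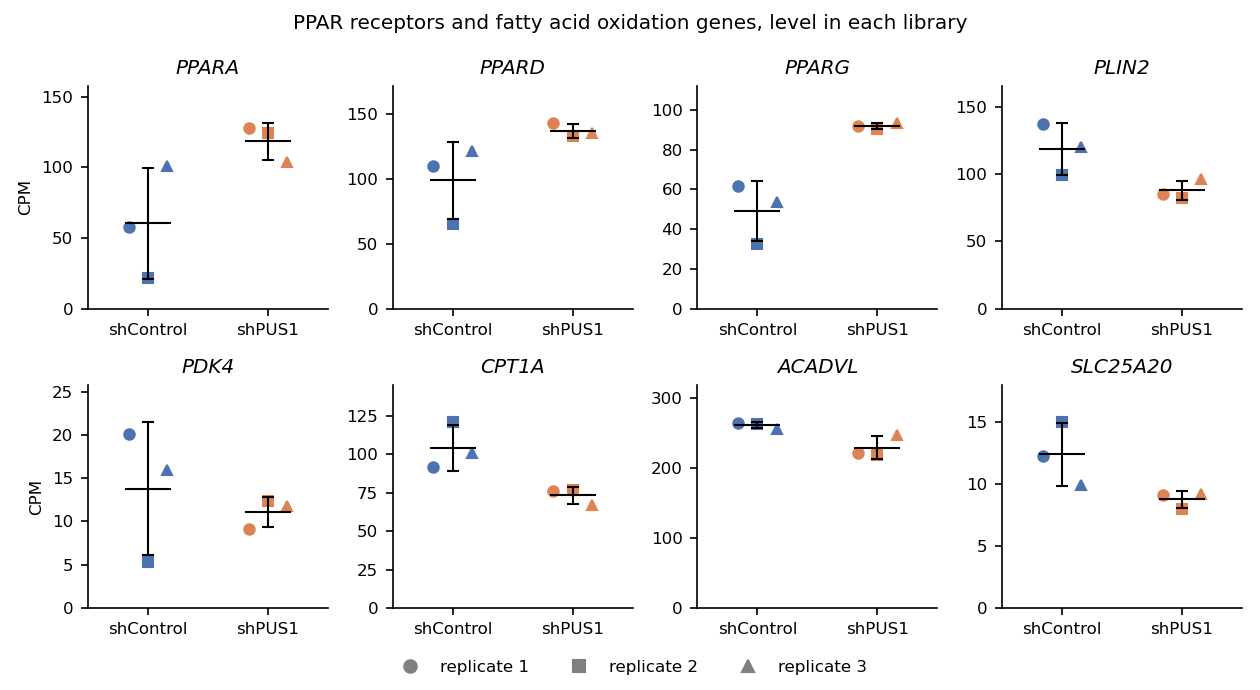
Level of the 8 members in CPM (linear axes from 0) in each of the 3 shControl (blue) and 3 shPUS1 (orange) libraries. Symbols mark the replicate number, horizontal lines the group mean and bars 1 SD. The shControl replicate 2 library (blue square) is the lowest of the 6 for PPARA, PPARD, PPARG and PDK4 and the highest for CPT1A and SLC25A20.

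PPARG, the receptor with the smallest adjusted p, lies on the plus strand of chromosome 3, from 12287368 to 12434356. CPT1A, the target with the smallest adjusted p, lies on the minus strand of chromosome 11, from 68754620 to 68844410. The 250 bases before a RefSeq start site of each gene (GRCh38.p14) are shown because PPARG was the only member in whose start windows the core motif AGGTCA occurred. Capitals mark the motif, and each sequence reads 5′ to 3′ on the strand of its gene, PPARG from chr3:12287118-12287367 and CPT1A from chr11:68844278-68844527.
PPARG: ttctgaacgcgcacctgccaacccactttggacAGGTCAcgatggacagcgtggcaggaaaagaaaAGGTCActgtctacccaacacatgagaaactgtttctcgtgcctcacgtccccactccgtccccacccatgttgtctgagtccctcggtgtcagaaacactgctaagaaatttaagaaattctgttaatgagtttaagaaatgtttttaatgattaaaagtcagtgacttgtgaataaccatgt
CPT1A: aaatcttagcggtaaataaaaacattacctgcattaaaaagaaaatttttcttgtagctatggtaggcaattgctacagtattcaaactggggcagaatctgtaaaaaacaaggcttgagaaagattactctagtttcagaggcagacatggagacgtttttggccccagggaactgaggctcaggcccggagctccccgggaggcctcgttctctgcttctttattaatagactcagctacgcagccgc
The copies in PPARG start 217 and 184 bases before the start site, which leaves 27 bases between them rather than the single base of a PPAR response element. Windows from 250 bases before to 50 bases after a start were searched on both strands. All 8 members were matched, with 15 windows, and AGGTCA was found in 3 of them, all windows of PPARG, against 13.8% of the 35116 windows of all genes. Of these 3, 2 overlap and hold the same copy, and the other 3 of the 6 windows of PPARG hold none. The full repeat, with 1 base of any kind between 2 copies of AGGTCA, was in none of the 15 windows and in 0.0228% of all windows. These letters describe the windows only, since the binding of a receptor was not measured and the start site used in these cells is not known.

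The level of PPARG was 61.5, 32.4 and 53.7 CPM in shControl replicates 1, 2 and 3, and 91.9, 90.4 and 93.3 CPM in the shPUS1 replicates. Every shPUS1 library was above every shControl library, and the shPUS1 libraries lay within 3 CPM of each other while shControl replicate 2 fell well below its group. The log2 fold change was 0.90 (standard error 0.22, 95% interval 0.39 to 1.42, edgeR adjusted p = 0.0676), a ratio of 1.87. DESeq2 gave 0.91 and an adjusted p of 0.00424. Without shControl replicate 2 the value was 0.67 with an adjusted p of 0.00487, so that the difference from the other shControl libraries was smaller and passed the test.

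PPARA (chromosome 22, 46150521 to 46243756, plus strand) had the largest fitted difference of the 8 and the widest spread. It was at 58.1, 22.02 and 100.6 CPM in shControl and at 127.5, 123.9 and 103.5 CPM in shPUS1. The lowest shPUS1 library and the highest shControl library were nearly equal, and on the FPKM scale, with no TMM scaling, they changed places at 7.76 and 7.85. The log2 fold change was 0.98 (standard error 0.45, 95% interval -0.066 to 2.02, edgeR adjusted p = 0.22). The shControl libraries ranged from 22.02 to 100.6 CPM, and leaving out shControl replicate 2 or 3 moved the log2 fold change to 0.57 or 1.56, with adjusted p of 0.0883 and 0.0687.

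PPARD (chromosome 6, 35342558 to 35428191, plus strand) was at 110.0, 64.8 and 121.1 CPM in shControl and at 142.8, 133.0 and 134.9 CPM in shPUS1. All 3 shPUS1 libraries exceeded the shControl libraries, of which replicate 2 was again the lowest. Its log2 fold change was 0.47 (standard error 0.22, 95% interval -0.036 to 0.98, edgeR adjusted p = 0.223). Leaving out shControl replicate 2 moved it to 0.24, where edgeR gave an adjusted p of 0.11. Per exonic length PPARD was the most abundant of the receptors in every library, and it was also the highest of them in CPM. The listed lengths are 4457 bases for PPARD, 13219 for PPARA and 11981 for PPARG, with 5, 12 and 17 transcripts in GENCODE 29. Which transcripts these cells make was not tested, so shares of FPKM rest on those lengths. PPARD made up 69.2% to 76.9% of the summed receptor FPKM in shControl and 63.8% to 65.9% in shPUS1. The share of PPARA was 8.81% to 19.4% in shControl and 17.1% to 20.04% in shPUS1, and that of PPARG was 11.4% to 15.01% and 15.5% to 17.0%. The sum over the receptors was 34.8, 18.4 and 40.5 FPKM in shControl and 48.7, 46.6 and 45.4 FPKM in shPUS1, without overlap.

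PPARA and PPARG have 13219 and 11981 listed exonic bases, a length given per gene and not per transcript. Genes with many listed exonic bases as a whole had higher values in shPUS1. Among the 2950 tested genes with the most listed exonic bases (8517 or more), the median log2 fold change was 0.11. It was -0.15 among the 2950 with the fewest (2618 or fewer), which hold SLC25A20 with 1898 bases. In the genes with the most listed bases, the median deviation of a library from the gene's mean was -0.14 and -0.095 (log2 CPM) in shControl replicates 1 and 2. It was 0.057 in shControl replicate 3, beside 0.069, 0.13 and -8.9e-05 in shPUS1. With the trend on length removed from each library, the log2 fold changes were 0.87 for PPARA, 0.77 for PPARG, 0.49 for PPARD and -0.43 for SLC25A20, and no member passed the test (edgeR adjusted p of 0.0803 to 0.684).

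CPT1A catalyzes the rate-limiting step of mitochondrial fatty acid oxidation and had the smallest adjusted p among the targets. It was at 91.5, 120.8 and 100.9 CPM in shControl and at 76.1, 77.0 and 67.2 CPM in shPUS1. The shPUS1 libraries all lay below the shControl libraries, and here shControl replicate 2 was the highest of the 6. The log2 fold change was -0.51 (standard error 0.14, 95% interval -0.84 to -0.18, edgeR adjusted p = 0.0873), a ratio of 0.703. DESeq2 gave an adjusted p of 0.0369, and edgeR without shControl replicate 2 gave -0.40 with an adjusted p of 0.0298. The other isoforms were less abundant. CPT1A made up 78.7% to 87.8% of the summed CPT1 FPKM in shControl and 77.6% to 78.9% in shPUS1. CPT1B, the muscle isoform, was at 3.62 to 5.996 CPM in shControl and 0.944 to 2.85 CPM in shPUS1 (log2 fold change -1.23, edgeR adjusted p = 0.126). CPT1C, the brain isoform, was at 9.80 to 15.9 CPM and 15.2 to 15.8 CPM, and the groups overlapped.

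SLC25A20, the carnitine-acylcarnitine carrier (chromosome 3, 48856926 to 48898904, minus strand), was at 12.2, 14.9 and 9.88 CPM in shControl and at 9.07, 7.93 and 9.21 CPM in shPUS1, from 145 to 285 counts per library. The groups did not overlap, although the lowest shControl and the highest shPUS1 library differed by less than 1 CPM. The fold change on the log2 scale was -0.50 (standard error 0.21, 95% interval -0.98 to -0.027, edgeR adjusted p = 0.178).

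ACADVL, the very-long-chain acyl-CoA dehydrogenase (chromosome 17, 7217125 to 7225266, plus strand), was the most abundant member per exonic length, at 54.5 ± 1.37 FPKM in shControl and 47.0 ± 3.24 FPKM in shPUS1 (SD, n = 3 each). It was at 263.6, 262.7 and 256.0 CPM in shControl and at 221.2, 218.2 and 247.2 CPM in shPUS1. This gene had the tightest shControl values of the 8 members, with replicate 2 between the others, and the groups did not overlap. The log2 fold change was -0.19 (standard error 0.11, 95% interval -0.44 to 0.067, edgeR adjusted p = 0.315), a ratio of 0.878. ACADVL shares 85 exonic bases with DLG4 on the opposite strand, which was at 60.9 CPM on average, and whether reads were counted by strand is not stated.

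PLIN2, which coats lipid droplets (chromosome 9, 19108375 to 19149290, minus strand), was at 137.2, 99.0 and 119.6 CPM in shControl and at 85.5, 82.2 and 96.0 CPM in shPUS1. The groups did not overlap, with shControl replicate 2 only slightly above shPUS1 replicate 3. The fitted log2 fold change was -0.43 (standard error 0.15, 95% interval -0.78 to -0.085, edgeR adjusted p = 0.131). Without shControl replicate 2 it was -0.55 with an adjusted p of 0.012. The ubiquitous perilipin PLIN3 was the more abundant coat gene, at 227.2 to 303.6 CPM in shControl and 275.9 to 298.9 CPM in shPUS1, with overlap (log2 fold change 0.095, edgeR adjusted p = 0.693). PLIN2 made up 18.5% to 19.8% of the summed perilipin FPKM in shControl and 13.0% to 15.9% in shPUS1.

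PDK4 (chromosome 7, 95583499 to 95596516, minus strand) was the only member whose groups overlapped. It was at 20.2, 5.29 and 15.9 CPM in shControl and at 9.18, 12.4 and 11.8 CPM in shPUS1. The shPUS1 libraries lay between shControl replicate 2 and the other shControl libraries. The log2 fold change was -0.30 (standard error 0.43, 95% interval -1.30 to 0.69, edgeR adjusted p = 0.68). Without shControl replicate 2 it was -0.70 with an adjusted p of 0.0239, and without shControl replicate 1 it was 0.076 with an adjusted p of 0.931.

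**Figure D2:**
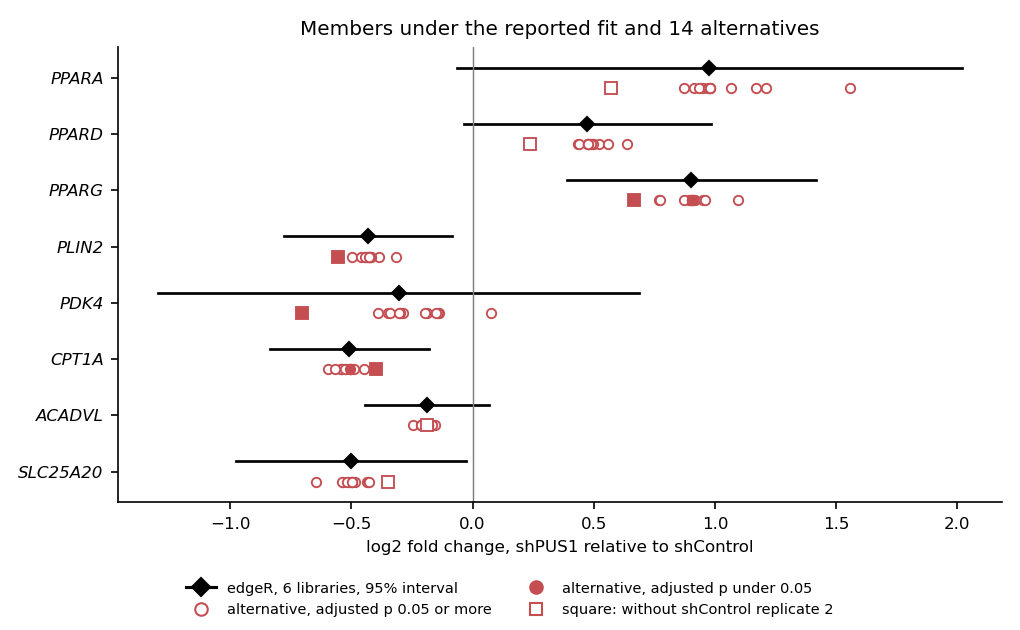
Log2 fold change of shPUS1 relative to shControl for each member. Black diamonds and lines give the edgeR value of 6 libraries with its 95% interval, and red symbols the 14 alternatives, filled where the adjusted p was under 0.05 and square for the fit without shControl replicate 2, where PPARG, PLIN2, PDK4 and CPT1A are filled. PDK4 is the only member with a value on the other side of 0.

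Leaving out shControl replicate 2 gave calls for 4 of the 8 members, PPARG as higher and PLIN2, PDK4 and CPT1A as lower, and the same fit called 18.6% of all genes (9.8% higher, 8.79% lower). Without any 1 of the other libraries, edgeR called none of the 8. The adjusted p of the members was then 0.215 to 0.871 without a shPUS1 library and 0.0687 to 0.931 without shControl replicate 1 or 3. PPARA, PPARD, ACADVL and SLC25A20 did not pass under any of the 14 alternatives, with smallest adjusted p of 0.0631, 0.11, 0.194 and 0.0919.

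Per exonic length, the members of shControl followed the order ACADVL (54.5 ± 1.37 FPKM), PLIN2 (23.9 ± 4.38), PPARD (22.4 ± 7.32), CPT1A (15.96 ± 1.85), SLC25A20 (6.53 ± 1.15), PPARA (4.65 ± 3.12), PPARG (4.16 ± 1.36) and PDK4 (3.09 ± 1.76; SD, n = 3). Only ACADVL and PLIN2, and CPT1A and SLC25A20, were neighbours whose libraries did not overlap. In shPUS1 the order was ACADVL (47.0 ± 3.24 FPKM), PPARD (30.4 ± 1.01), PLIN2 (17.4 ± 1.40), CPT1A (11.1 ± 0.834), PPARA (8.87 ± 0.965), PPARG (7.60 ± 0.1002), SLC25A20 (4.56 ± 0.341) and PDK4 (2.43 ± 0.386). There no neighbours overlapped. The receptors thus ranked above PLIN2 (PPARD) and above SLC25A20 (PPARA and PPARG) in shPUS1, where their shControl libraries overlapped those genes or, for PPARG, lay below them. These ranks rest on the listed lengths per gene, such as 1898 bases for SLC25A20 beside 13219 for PPARA and 11981 for PPARG.

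**Figure D3:**
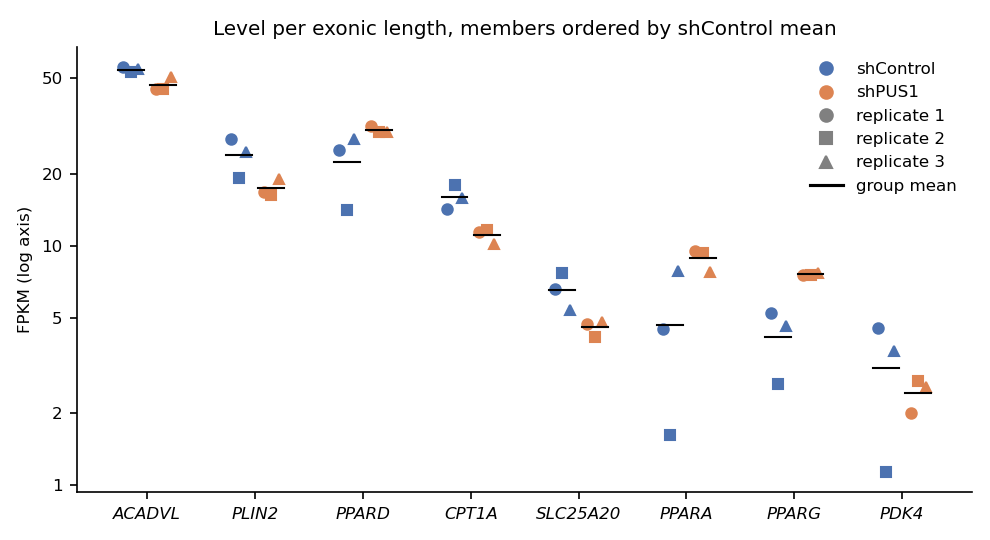
Level of each member per exonic length in FPKM (log axis) in the 3 shControl (blue) and 3 shPUS1 (orange) libraries, with the group mean as a line and the replicate as the symbol. The genes are ordered by their shControl mean, from ACADVL at 54.5 to PDK4 at 3.09 FPKM. The orange points are tightly grouped in most genes, while the blue square of shControl replicate 2 lies far below its group for PPARA, PPARD, PPARG and PDK4.

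The other genes of the pathway were taken from 8 lists written from general knowledge, which together hold 126 genes, 5 of them members. The lists were chosen with earlier results of these data known, so their counts are not an independent contrast with those of all genes. Of these 126, 100 had enough reads to be tested, and 3 passed the test, all lower in shPUS1, where 0.841% of all genes were called lower. No gene of the lists was called higher, where 1.74% of all genes were. At an unadjusted p under 0.05, 21 of the 100 were lower and 8 higher, beside 12.8% and 12.6% of all genes. The median log2 fold change of the 100 was -0.072, and that of all genes tested was -0.034.

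The largest difference was that of ANGPTL4, a secreted inhibitor of lipoprotein lipase and a classical target of all PPARs that hypoxia also induces. It lies on the plus strand of chromosome 19, from 8363289 to 8374370, and was at 8.70, 10.8 and 5.59 CPM in shControl and at 0.835, 1.26 and 1.48 CPM in shPUS1. The shPUS1 values rested on 15 to 25 counts per library. ANGPTL4 fell by 2.81 on the log2 scale (standard error 0.35, edgeR adjusted p = 0.0215), the opposite direction to the fitted values of the 3 receptors. LPL, the lipase it inhibits and itself a PPARG target, was at 2.94 to 11.8 CPM in shControl and 8.35 to 10.2 CPM in shPUS1, with overlap. Of the 16 genes for fatty acid uptake and binding, 9 were tested, and ANGPTL4 was the only one called, with a list median of 0.16.

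G0S2, an inhibitor of the triglyceride lipase PNPLA2 and a PPAR target in adipocytes (chromosome 1, 209675412 to 209676390, plus strand), was at 60.1, 55.7 and 53.7 CPM in shControl. In shPUS1 it was at 25.8, 24.6 and 26.0 CPM, with little spread in either group. It fell by 1.15 on the log2 scale (standard error 0.12, edgeR adjusted p = 0.0138), to 0.451 of the shControl level. The lipase gene PNPLA2 was not called, nor were its coactivator ABHD5 (53.2 to 63.7 CPM in shControl and 74.6 to 77.4 CPM in shPUS1, edgeR adjusted p = 0.0971) and the lipase gene LIPE (5.98 to 9.74 and 12.6 to 14.02 CPM, adjusted p = 0.119). G0S2 was the 1 gene called among the 14 tested of 19 lipid droplet and lipolysis genes, whose median was 0.095.

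ETFB, a subunit of the flavoprotein that takes electrons from the acyl-CoA dehydrogenases (chromosome 19, 51345169 to 51366388, minus strand), was at 32.7, 32.5 and 30.5 CPM in shControl and at 17.9, 14.1 and 16.7 CPM in shPUS1. It fell by 0.97 on the log2 scale (standard error 0.15, edgeR adjusted p = 0.0319). Of its stretches of 100 bases, 10.8% occur in another gene, AC008750.8, which overlaps it on the same strand and was at 0.0353 CPM on average, while the members share none. The partner subunit ETFA was not called. Of the 18 mitochondrial beta-oxidation genes, 17 were tested and ETFB alone was called. Fitted values were below 0 for 14 of the 17, beside 7770 of the 14748 genes tested, and the list median was -0.23. For 5 of the 17 the shPUS1 libraries were all below the shControl libraries, where 17.3% of all genes had that order.

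ANGPTL4, G0S2 and ETFB passed in 10 of the 15 fits run on each. They did not pass with the replicate number as a block (edgeR adjusted p of 0.0617, 0.0693 and 0.0969) or without shControl replicate 1 or any shPUS1 library, and the highest adjusted p among those fits was 0.222. Without shControl replicate 2 they fell by 2.59, 1.17 and 0.97, with adjusted p of 0.00194, 0.00052 and 0.00282.

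**Figure D4:**
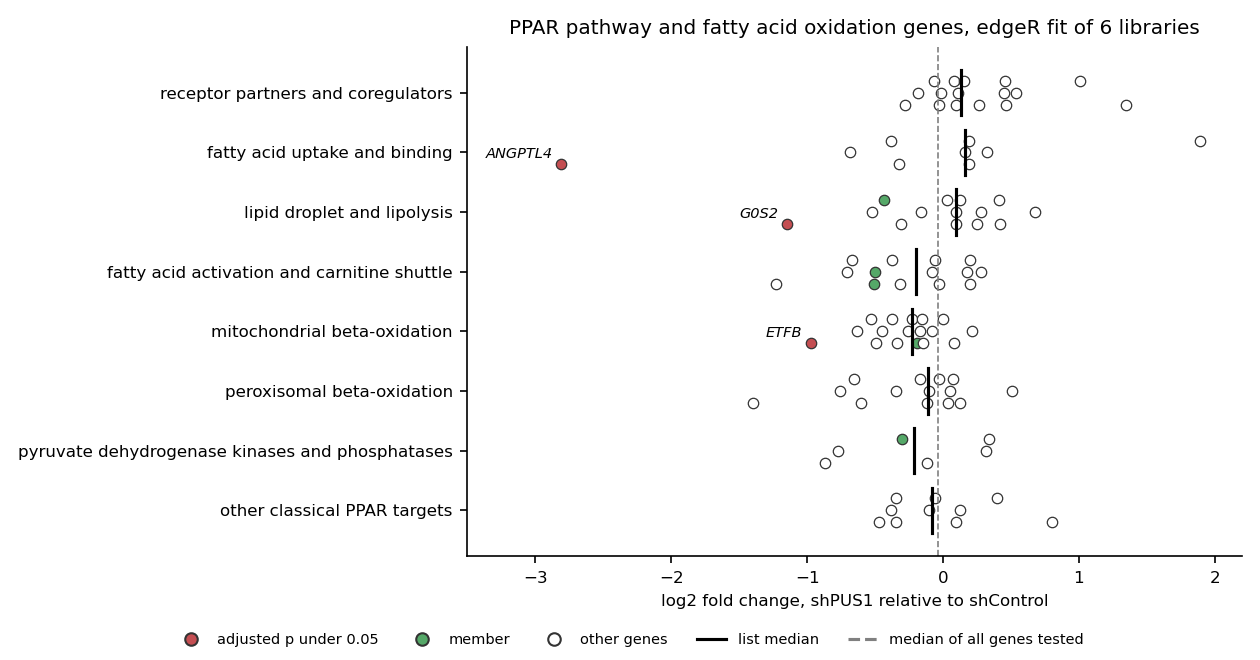
Log2 fold change of shPUS1 relative to shControl for every tested gene of the 8 pathway lists (points), with the list median (black line) and the median of all genes tested (dashed line, -0.034). Red points passed an adjusted p of 0.05 and green points are members. ANGPTL4, G0S2 and ETFB are the only red points, all to the left of 0, and the mitochondrial beta-oxidation list has its median at -0.23.

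No gene was called in the remaining lists. Of 17 receptor partners and coregulators, 16 were tested, with 11 fitted values above 0, beside 6978 of the 14748 genes tested. The list median was 0.13, and with the trend on exonic length removed it was 0.060. The one with the smallest adjusted p was NCOA3, a p160 coactivator of nuclear receptors, at 66.9, 50.5 and 104.3 CPM in shControl and 155.7, 167.1 and 123.4 CPM in shPUS1 (log2 fold change 1.01, edgeR adjusted p = 0.0747). PPARGC1A, the coactivator that drives mitochondrial biogenesis, was at 8.51, 2.57 and 10.4 CPM in shControl and 17.1, 19.2 and 18.1 CPM in shPUS1 (log2 fold change 1.35, edgeR adjusted p = 0.114). DESeq2 called both as higher. Of the retinoid X receptor partners, RXRB had the highest level per exonic length, at 16.67 ± 2.92 FPKM in shControl and 13.5 ± 0.530 FPKM in shPUS1 (log2 fold change -0.28, edgeR adjusted p = 0.262). RXRA was at 6.10 ± 0.302 and 5.87 ± 0.288 FPKM, with a log2 fold change of -0.032 (edgeR adjusted p = 0.873). In CPM the means of RXRA were the higher, at 73.1 and 71.5 beside 64.3 and 53.1 for RXRB. The listed lengths are 12077 bases for RXRA and 3897 for RXRB.

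The 15 genes of fatty acid activation and the carnitine shuttle had 14 tested members with a median of -0.20, and CPT1A was the one with the smallest adjusted p. The 14 tested of 15 peroxisomal beta-oxidation genes had a median of -0.11. There the smallest adjusted p was that of CAT, the catalase that removes the hydrogen peroxide made by peroxisomal oxidation, at 76.1, 98.0 and 72.4 CPM in shControl and 56.0, 50.7 and 55.3 CPM in shPUS1 (log2 fold change -0.61, edgeR adjusted p = 0.0671). Among the 6 pyruvate dehydrogenase kinases and phosphatases, with a median of -0.21, it was that of PDK1, a kinase induced by hypoxia. PDK1 was at 56.9, 40.0 and 68.0 CPM in shControl and 30.4, 29.1 and 30.9 CPM in shPUS1 (log2 fold change -0.87, edgeR adjusted p = 0.059), without overlap. Per exonic length PDK2 had the highest group mean of the kinases, at 5.18 ± 0.685 FPKM in shControl and 4.70 ± 0.519 FPKM in shPUS1, and PDK4 made up 12.1% to 33.4% and 20.9% to 28.4% of the kinase sum. Of the 20 other classical PPAR targets, 10 were tested, with a median of -0.082. The mitochondrial carrier gene UCP2 had the smallest adjusted p, at 27.2, 28.0 and 27.7 CPM in shControl and 37.1, 38.1 and 34.3 CPM in shPUS1 (log2 fold change 0.40, edgeR adjusted p = 0.105).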

How the data were processed

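Poly(A) RNA libraries from MDA-MB-231 cells (VAHTS mRNA-seq V2 kit) were sequenced as paired ends on a NovaSeq instrument, aligned with HISAT2 and counted with HTSeq 0.6.1 by the authors. The genome build, annotation and strandedness are not given in the sources used here. The deposited table gives estimated counts per gene, without normalization and partly not whole, and the FPKM that the authors made from them. Its coordinates were printed as given, and of 58337 identifiers found in GENCODE 29 (GRCh38), 99.98% overlapped the gene there. The table and the labels put 3 libraries in each group, called biological replicates. Whether they came from separate transductions is not stated, so p-values weigh the group difference only against the spread between these libraries.

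Counts were rounded, filtered with filterByExpr (14748 genes kept), and TMM-scaled, and groups were compared in edgeR 4.0.16 (R 4.3.3) by its quasi-likelihood test, with Benjamini-Hochberg adjustment over all genes tested and a call at an adjusted p under 0.05. The 95% intervals use the same fit and are not adjusted. Alternatives used DESeq2 1.42.0 (adjusted p given as NA left out), limma 3.58.1 on log2(FPKM + 1) or log2(FPKM + 0.1) where a gene averaged 1 FPKM or more, size factors of DESeq2, library totals, no filter, a fold threshold, a replicate block and each library left out. Removal of the trend on exonic length (loess, span 0.3) was an alternative chosen after seeing the data. The shared replicate numbers were not treated as pairs: deviations of same-numbered libraries from their group means correlated at -0.053, -0.026 and -0.19 across genes.

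The members and gene lists were chosen with earlier results of these data known. The rule named the 8 members, PUS1, ANGPTL4, every called gene of a list or else the gene with the smallest adjusted p, and the 3 protein-coding genes with a mean of at least 1 CPM nearest to PPARG in centred log2 CPM. Other genes of the lists that carry values were chosen after their values had been seen. The searches for shared stretches of 100 bases used GENCODE 29 transcripts, and start windows came from RefSeq (GRCh38.p14). A withheld item is not reported here.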

Additional observations from a re-analysis of the deposited data

How the results depend on the processing

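Among all genes, 380 were called by edgeR with 6 libraries, 1712 by DESeq2, 1284 with no filter on low counts, 250 by limma on log2(FPKM + 0.1), 202 with a log2 fold change of 1 or more in size required as well, 18 with the replicate block, and 0 to 2813 with 1 library left out. Members called were 0 by edgeR (4 at an unadjusted p under 0.05), 2 by DESeq2, 1 with no filter (PPARG), and 0 to 4 with 1 library left out. Pathway genes called were 3 by edgeR, 9 by DESeq2, 7 with no filter, 0 with the replicate block, 2 with the fold threshold, and 0 to 27 with 1 library left out. Members that stand in the lists are counted there too, CPT1A by DESeq2 and CPT1A, PLIN2 and PDK4 without shControl replicate 2. The extremes were the fits without shControl replicate 2, with 2813, 4 and 27, and without shPUS1 replicate 3, with 0, 0 and 0 (2581 genes and 3 members at an unadjusted p under 0.05). Calls were split 256 higher to 124 lower with TMM and 164 to 132 with library totals. PDK4 changed sign once, to 0.076 without shControl replicate 1, and was at -0.70 without shControl replicate 2. The causes were not tested. With the replicate block, the calls of PUS1, ANGPTL4, G0S2 and ETFB were lost and no other named gene changed its call. The numbers are labels without a stated pairing. All other named genes kept their direction in all 14 alternatives. Among the members, PDK4 and SLC25A20 rest on the fewest counts, 101 to 308 and 145 to 285 per library.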

Other observations

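The genes whose levels lay nearest to PPARG over the 6 libraries, by the root mean square difference of centred log2 CPM among 12124 protein-coding genes, were DAPK3 (0.046), ARNTL (0.048) and GMCL1 (0.062). DAPK3, a protein kinase, was at 130.1, 63.1 and 105.4 CPM in shControl and at 178.3, 178.0 and 191.4 CPM in shPUS1. ARNTL, a core transcription factor of the circadian clock, was at 16.7, 8.18 and 14.7 CPM in shControl and at 23.3, 22.9 and 24.2 CPM in shPUS1. GMCL1 was at 92.5, 52.4 and 81.1 CPM and at 134.5, 149.7 and 142.6 CPM. As for PPARG, shControl replicate 2 was the lowest library for all 3, and none passed the edgeR test with 6 libraries (adjusted p of 0.0851, 0.104 and 0.0575).

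Many targets that define PPAR activity in liver or fat had no reads in these cells. The hormone gene FGF21, CYP4A11, FABP1, PCK1 and ADIPOQ were among 13 pathway genes with 0 counts in all 6 libraries. A count of 0 allows up to 3 counts, or 0.157 to 0.204 CPM per library, by counting error alone. FABP4 and CIDEC, adipocyte targets of PPARG, did not exceed 0.413 and 0.131 CPM, while PPARG itself was at 32.4 CPM or more.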
